A study of Drosophila melanogaster with 2 samples.

Results

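The peaks described here are the 1555 regions that ranked from 1446 to 3000 by signal among the 23030 peaks called on both replicates pooled (dm6 build), directly below the 1445 that passed the authors' irreproducible discovery rate (IDR) step. They were selected on that pooled signal, and none is in the IDR list, whose peaks are the first 1445 ranks. The data are a chromatin immunoprecipitation with sequencing (ChIP-seq) of CG15073, with enhanced green fluorescent protein (eGFP) fused to its C-terminal end, from mixed-sex Drosophila melanogaster embryos aged 0 to 24 h of a transgenic line. An antibody against GFP was used on chromatin sheared to 200 to 800 bp, and the line is the only genotype, in 2 biological replicates numbered 3 and 4. No other condition was analysed here, so each comparison is between rank bands of the same libraries: the stronger IDR ranks (1 to 1445), the 1555 peaks just below them, and the 11030 peaks ranked over 12000, the weak end of the list. In whole embryos, strong binding in few cells and weak binding in many cannot be told apart.

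ChIP-seq recovers DNA that a protein holds, and a peak caller lists the places where reads pile up, down to very weak ones when its threshold is relaxed. The IDR step then keeps the ranks on which replicates concord. Peaks just past that limit are commonly left out of analyses, although the limit depends on depth and on the weaker replicate. CG15073 belongs to the ZAD zinc finger genes, a large insect family named after the zinc-finger-associated domain that lets such proteins pair. In flies, many sequence-specific factors and insulator proteins are found just upstream of transcription start sites and in introns, where enhancers often lie.

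The sequences of 5 of these peaks are given first, each as the 201 bp centred on the summit, from the plus strand of the Release 6 (dm6) assembly in RefSeq. CG42671 and Glyp are shown as strong promoter peaks found in both replicate lists. CR46447, Vha68-1 and RecQ5 had the strongest windows, on the arms from which sequence is printed, with a motif whose share differed from that in ranks over 12000. Windows that reached into an untranslated region (UTR) are not printed. The strongest windows with a Pho site (in kirre) and a TATA box (nearest to Dfd), which reached none, are not printed either. Capitals mark the CTCF core in CR46447 (AGATGGCGC or AGAGGGCGC, here GCGCCATCT on the opposite strand and AGAGGGCGC), the homeodomain core TAATTA in Vha68-1 and the Tramtrack site CAGGACC in RecQ5. In Glyp they mark a GATA site (AGATAAG) and a TATA box (TATAAAA), and CG42671 held none of the 14 motifs searched. The windows are X:1953025-1953225 for CR46447, 2L:13004150-13004350 for Vha68-1, 3L:14632238-14632438 for RecQ5, 2L:2130500-2130700 for Glyp and 3L:11215206-11215406 for CG42671.
CR46447: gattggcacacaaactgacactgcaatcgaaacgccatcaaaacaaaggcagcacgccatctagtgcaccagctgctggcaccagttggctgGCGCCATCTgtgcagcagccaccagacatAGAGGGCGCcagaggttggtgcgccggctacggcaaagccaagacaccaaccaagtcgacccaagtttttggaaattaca
Vha68-1: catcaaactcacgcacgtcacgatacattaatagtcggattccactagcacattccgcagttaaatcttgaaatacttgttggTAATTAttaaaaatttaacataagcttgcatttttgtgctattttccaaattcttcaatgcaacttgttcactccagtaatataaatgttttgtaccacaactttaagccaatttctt
RecQ5: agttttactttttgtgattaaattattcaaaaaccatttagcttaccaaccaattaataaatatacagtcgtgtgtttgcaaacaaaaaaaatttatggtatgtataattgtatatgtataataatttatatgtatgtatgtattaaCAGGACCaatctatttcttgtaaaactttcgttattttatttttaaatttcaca
Glyp: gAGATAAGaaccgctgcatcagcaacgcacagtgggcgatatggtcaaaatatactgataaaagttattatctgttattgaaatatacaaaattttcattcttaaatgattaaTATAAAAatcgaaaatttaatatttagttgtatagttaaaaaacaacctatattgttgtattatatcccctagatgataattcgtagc
CG42671: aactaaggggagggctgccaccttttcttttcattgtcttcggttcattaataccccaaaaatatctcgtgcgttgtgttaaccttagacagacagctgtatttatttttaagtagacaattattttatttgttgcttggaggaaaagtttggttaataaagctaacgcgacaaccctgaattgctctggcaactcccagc

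The CTCF window at CR46447 lay 1355 bp downstream of the nearest start site, that of this non-coding gene, inside the nuclear receptor gene Hr4, and was the richest of the 5 in G and C (55.2%). It had a pooled signal of 64.4 at rank 1527, and ranks of 1801 in replicate 3 and 2984 in replicate 4. The other 4 windows had 21.4% (RecQ5), 27.4% (Glyp), 32.3% (Vha68-1) and 39.3% (CG42671) G and C. The RecQ5 window, from the gene of a DNA helicase, was in addition under 500 bp from a start site of dlp, which encodes a glypican. It had a signal of 63.0 at rank 1589.

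The signal is a strength per peak from the authors' peak caller, whose scale is not stated. It ran from 44.8 to 66.5 in the band, with a median of 52.0. The IDR ranks held 66.5 to 9688.9 (median 96.5) and the ranks over 12000 held 22.2 to 27.9 (median 24.5). The deposited −log10 q-value fell from 2.01 to 0.717 across the band, with a median of 1.14, while the lowest value of the IDR ranks was 2.03. At the upper limit, the last IDR rank was a peak at app (rank 1445, signal 66.5), in rank 3445 of replicate 3 and 2032 of replicate 4. The first rank past it was a peak in the 5' UTR of CG44838 (rank 1446, signal 66.5), in rank 793 of replicate 3 with no replicate 4 summit within 200 bp. At the lower limit, form3 (rank 3000, signal 44.8) was in rank 879 of replicate 4 and missing from replicate 3, and Hmgs (rank 3001, signal 44.7) was in ranks 5287 and 1676. These values describe the selection and were not tested. Of the 1555 peaks, 1553 (99.9%) had the same width of 410 bp, against 85.9% of the IDR ranks.

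Promoters made up a large share of these peaks. A summit within 500 bp of an annotated start site was found for 628 of 1555 (40.4%, exact 95% interval 37.9 to 42.9), against 757 of 1445 IDR ranks (52.4%, 49.8 to 55.0) and 1785 of 11030 ranks over 12000 (16.2%, 15.5 to 16.9). The share was 12.0 percentage points below the IDR ranks (adjusted p = 5.12e-11) and 24.2 points above ranks over 12000 (adjusted p = 6.82e-97; two-sided Fisher's exact tests with Benjamini-Hochberg adjustment). In bins of 500 ranks it was 54.6%, 55.4% and 45.8% for the first 3 bins, 46.4% for ranks 1501 to 2000, 38.8% for 2001 to 2500 and 36.0% for 2501 to 3000. The next bins gave 31.8% and 29.0%. G and C took a median of 35.8% of the windows of the band (interquartile range 31.3 to 40.8), 35.3% of those of the IDR ranks and 39.3% of those of ranks over 12000. With bands redrawn on 1 replicate's own list, the differences were −25.3 and 9.19 points without replicate 3, and −6.85 and 24.2 points without replicate 4, each past the threshold. The intervals cover the counting of peaks only, since read depth is unknown. Peaks are not independent replicates, so p describes the spread among positions.

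**Figure D1:**
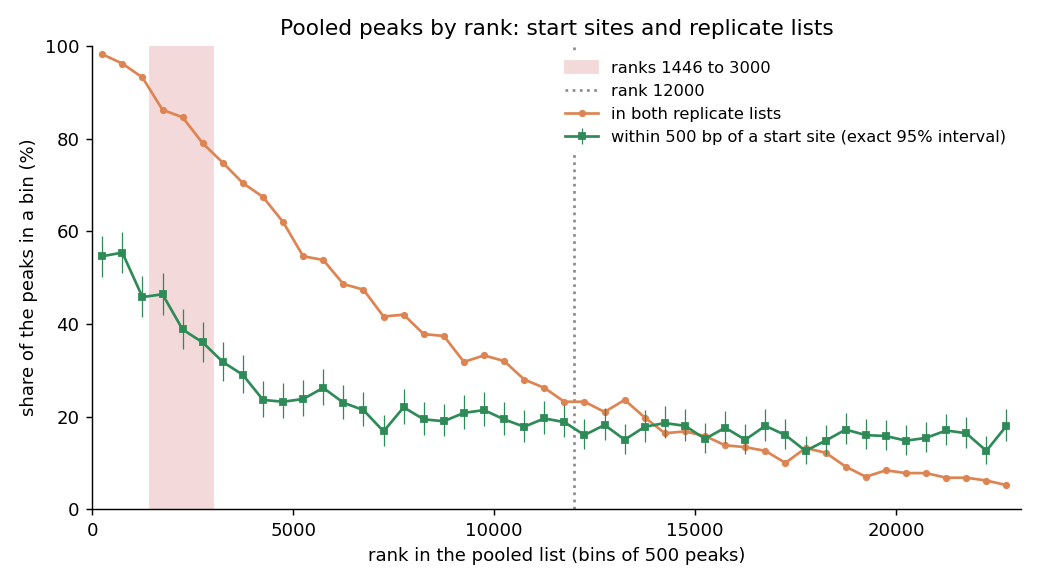
Share of pooled peaks per bin of 500 ranks (x axis, rank; y axis, percent) that lay within 500 bp of a start site (squares, exact 95% interval) or had a summit within 200 bp in both replicate lists (circles). The start-site share fell from 46.4% to 36.0% over the 3 bins from rank 1501 to 3000 and the share in both lists from 86.2% to 79.0%.

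At promoters the summits lay mostly upstream. Of 577 that had a protein-coding start within 500 bp, 465 (80.6%, exact 95% interval 77.1 to 83.7) lay upstream of the nearest one, with a median position of −117 bp. This compares with 605 of 709 (85.3%) and −140 bp in the IDR ranks, and with 852 of 1516 (56.2%) and −49.5 bp in ranks over 12000. Both differences passed Fisher's exact test (−4.74 points, adjusted p = 0.0246; 24.4 points, adjusted p = 3.84e-26). By the same exact test, the first was not called without the peaks near a higher-ranked peak (adjusted p = 0.0775) or in the upper of 2 equal parts of the ranks (adjusted p = 0.262). With bands redrawn on the other replicate's list, this difference was −10.4 points without replicate 3 and −12.2 points without replicate 4. The bins from −150 to −100 bp and from −100 to −50 bp held 15.4% and 16.1% of the 577, and no bin of 50 bp held more. Protein-coding start sites on both strands lay within 500 bp for 220 of the 577 (38.1%), against 35.0% of the IDR ranks and 14.3% of ranks over 12000.

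**Figure D2:**
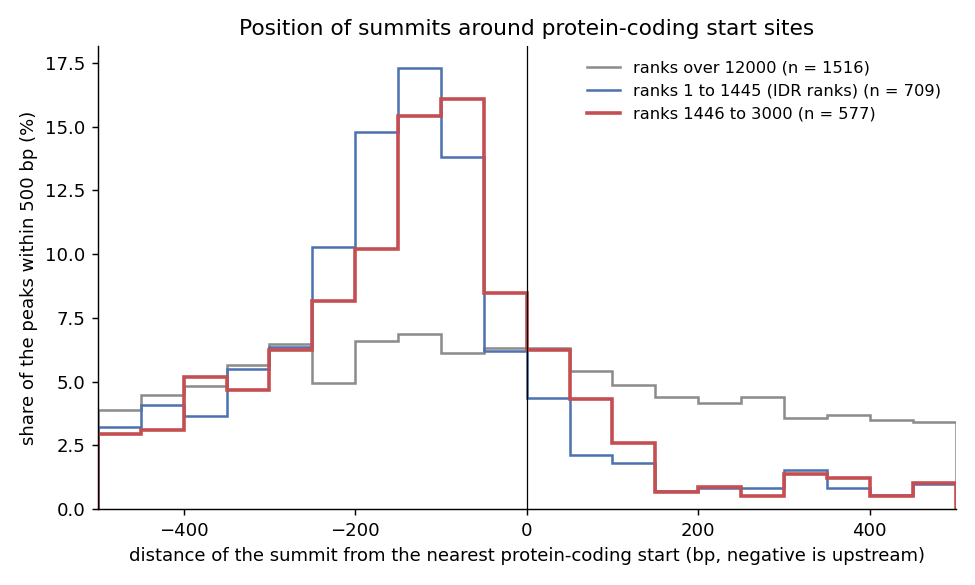
Distance of summits from the nearest protein-coding start site in bins of 50 bp (x axis, bp, negative upstream; y axis, percent of the peaks within 500 bp) for the 3 rank bands. Ranks 1446 to 3000 (577 peaks) and the IDR ranks (709) piled up upstream of the start, while ranks over 12000 (1516) were spread more evenly.

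The strongest peaks at protein-coding start sites found in both replicate lists lay at genes of varied function. Orai, which encodes the pore subunit of the store-operated calcium channel, had its summit at −292 bp (2R:17854952) with a pooled signal of 66.5, a signal of 42.1 at rank 1401 in replicate 3 and of 30.1 at rank 1270 in replicate 4. It was therefore among the first 1445 ranks of each replicate alone. The peak at −82 bp from Ndfip (3L:17654362, signal 66.3), an adaptor of ubiquitin ligases, had start sites of CG7484 and of Krn, an EGF receptor ligand gene, nearby. Replicate 3 gave it rank 5450 and a signal of 23.0, and replicate 4 rank 955 and a signal of 34.3, so the replicates stood far apart.

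Glyp, the glycogen phosphorylase gene (signal 66.2), ranked 1119 in replicate 3 and 4176 in replicate 4. Mkp3, which encodes a phosphatase of the ERK kinase (signal 66.2), ranked 1197 and 5102. Nup98-96, the gene of a pair of nuclear pore proteins (signal 66.1), ranked 1789 and 1477 and shared its peak with mbc, a gene of myoblast fusion. For the first pair of genes replicate 3 gave the better rank, and for Nup98-96 the ranks were close.

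The BTB-domain transcription factor gene psq (signal 65.7, summit at −73 bp) ranked 1796 and 2042. Vha68-1, a subunit gene of the vacuolar proton pump (signal 65.6, at −143 bp), shared its peak with mTor, the growth-control kinase gene, and ranked 1747 and 1875. Pdp1, a bZIP transcription factor gene of the circadian clock (signal 65.1), ranked 1780 and 3170, and edl, which encodes a regulator of ETS factors (signal 64.9), ranked 2774 and 1877. All of these summits lay upstream of the start.

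Others of the 25 strongest were sea, a mitochondrial carrier gene (ranks 1083 and 4026), rdx, which encodes a Cullin-3 adaptor (1629 and 15929), and Mhcl, a myosin heavy chain-like gene (1237 and 13881). Hmu shared its peak with bigmax (2048 and 1501), and grsm shared one with Spc25, a kinetochore gene (2793 and 845). Pfrx, a gene of fructose 2,6-bisphosphate metabolism, ranked 750 and 577, ahead of the IDR limit in both, and its summit lay 202 bp from a higher-ranked one. The remaining 10 genes were CG42671, CG16787, CG11828, CG32196, CG42747, CG7668, CG5910, CG6321, CG5535 and CG14757, with replicate ranks from 648 (CG5910, replicate 4) to 23586 (CG42747, replicate 4).

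Outside promoters, most of these peaks lay in introns, and their places differed from those of the weak end of the list. Of the 927 over 500 bp from any start site, 631 (68.1%, exact 95% interval 65.0 to 71.1) had their summit in an intron or another transcribed stretch outside coding sequence and UTRs, and 220 (23.7%) between genes. Coding sequence held 25 (2.70%), 3' UTRs held 34 (3.67%) and 5' UTRs held 17 (1.83%). Against the 688 such IDR ranks, 0 of 5 classes passed Fisher's exact test after adjustment and 0 had an unadjusted p under 0.05. There, introns had 68.2%, intergenic sequence 25.1%, coding sequence 2.76%, 3' UTRs 2.03% and 5' UTRs 1.89%. Against the 9245 such ranks over 12000, 4 of 5 passed. By Fisher's exact test, introns were higher (53.0% in the weak ranks, adjusted p = 7.44e-18), and coding sequence (9.50%, adjusted p = 1.83e-14), 3' UTRs (6.92%, adjusted p = 1.86e-04) and intergenic sequence (29.4%, adjusted p = 5.64e-04) were lower. With replicate 3 left out and the bands redrawn on the list of replicate 4, 2 of 5 classes differed from its first 1445 ranks. There, introns held 58.6%, against 52.4% of ranks over 12000. Coding sequence held 5.85% against 9.42%, and intergenic sequence 30.5% against 31.4%, the last no longer called. With replicate 4 left out, intergenic sequence also lost its call (22.9% against 26.2%, adjusted exact p = 0.0818).

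Of all 1555 peaks, 740 (47.6%) had no start site within 1000 bp. The strongest of these was at −3949 bp from zfh2, a zinc finger homeodomain gene (4:497861, signal 66.5), in ranks 1557 and 1143. A peak 15225 bp from the nearest start of the head homeotic gene Dfd (3R:6807061, signal 66.4) ranked 5636 and 1463. In introns, strong peaks lay in AdamTS-B, a metalloprotease gene (X:5706030, ranks 3797 and 998), in Ptp61F, a tyrosine phosphatase gene, at −2336 bp from the rhomboid-family protease gene ru (3L:1368292, ranks 1950 and 4712), and in corn (3L:7152045, ranks 1198 and 6070). CG8180 (2R:15478015) ranked 2991 and 1410. A peak in the ETS factor gene pnt (3R:23338506, signal 66.1) ranked 1462 in replicate 3 and 17556 in replicate 4. E23, an ecdysone-induced transporter gene (2L:3348321, signal 66.1), ranked 892 and 10216.

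The 1555 peaks were spread over all 6 arms, with 294 on 2L, 272 on 2R, 359 on 3L, 378 on 3R, 14 on chromosome 4 and 238 on X. Arm 3L held 23.1% against 18.8% of the IDR ranks (adjusted p = 0.0348), and X held 15.3% against 19.0% (adjusted p = 0.0348), both by Fisher's exact test. Against ranks over 12000, only chromosome 4 passed, with 0.900% against 1.80% (adjusted exact p = 0.0348), while 3L had 23.1% in both and X 15.3% against 13.7% (adjusted p = 0.277). X holds 17.0% and 3L 19.3% of the protein-coding start sites. Along the ranks, X held 19.4%, 19.4% and 17.0% of the first bins of 500, and 16.4%, 15.6% and 14.6% of the 3 bins from rank 1501 to 3000. The calls for arms were not stable: that for 3L held in 3 of 9 other settings, that for X in 2 of 9 and that for chromosome 4 in 1 of 9, and among promoter peaks alone no arm passed. Among peaks outside start sites both passed against the IDR ranks, 3L with 25.5% against 19.3% (adjusted exact p = 0.0240) and X with 15.6% against 22.2% (adjusted exact p = 0.0110), splits chosen after seeing the data. Without replicate 3, the bands were redrawn on the list of replicate 4. X then held 11.6% against 18.1% of the first 1445 ranks of that list (adjusted p = 4.97e-06, Fisher's exact test), and 3L was not called. Without replicate 4, no arm was called in either comparison.

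**Figure D3:**
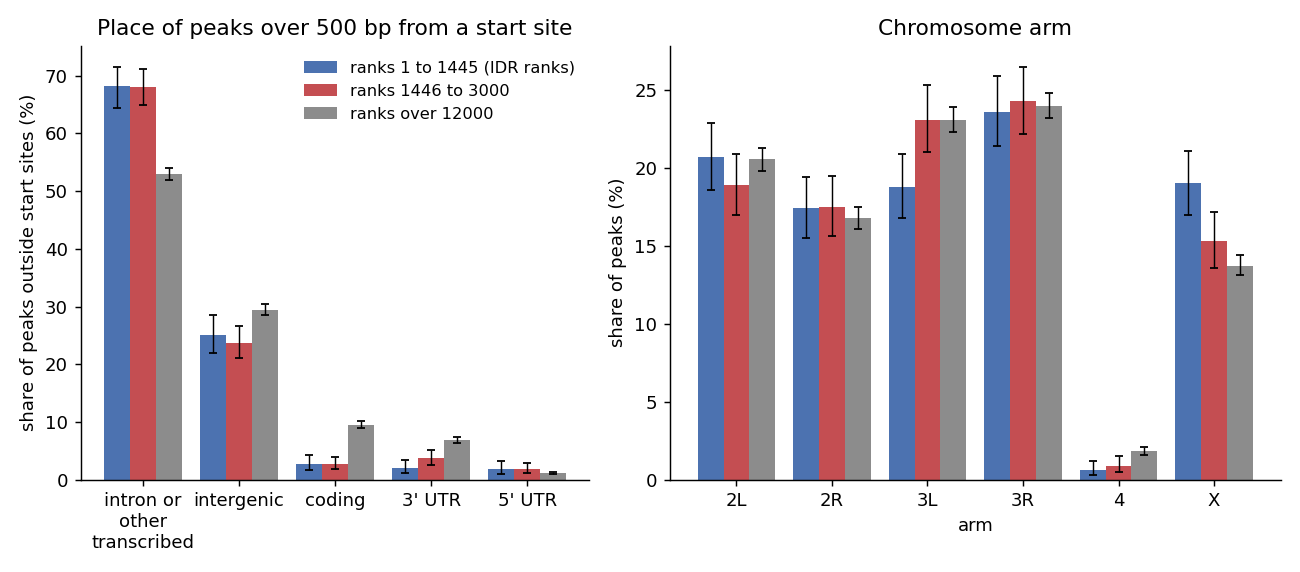
Left, place of summits over 500 bp from a start site as percent of such peaks; right, percent of all peaks on each arm, for the 3 rank bands with exact 95% intervals. Introns held 68.1% in ranks 1446 to 3000, 68.2% in the IDR ranks and 53.0% in ranks over 12000.

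Nearly every peak of the band was listed in replicate 3, and most in both replicates. A replicate summit within 200 bp was present in both relaxed lists of 30000 for 1303 peaks (83.8%, exact 95% interval 81.9 to 85.6), in replicate 3 alone for 216 (13.9%) and in replicate 4 alone for 36 (2.32%). None lacked both. The share in both lists was 95.8% in the IDR ranks and 12.6% in ranks over 12000. The replicates' reads made the pooled signal that chose the peaks, so these shares describe the selection and were not tested. With only the first 3000 ranks of each replicate, 876 (56.3%) were listed in replicate 3, 613 (39.4%) in replicate 4 and 230 (14.8%) in both, against 85.1% in both for the IDR ranks. A narrower limit of 50 bp between summits left 40.1% in both lists.

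The rank of a peak differed widely between the replicates. The median partner rank was 2704 in replicate 3 (interquartile range 1800.5 to 4827) and 3447 in replicate 4 (1720.5 to 8038). For 837 of the 1303 (64.2%) the ranks differed by more than 2-fold, and for 146 (11.2%) by more than 10-fold. Among peaks in both lists, these shares were 34.8% and 4.48% in the IDR ranks. They were 53.7% and 2.78% in ranks 3001 to 12000, and 27.4% and 0.649% in ranks over 12000. Spearman's rho between the replicates' signals was −0.344 over the 1303 peaks and 0.604 over the 1384 such IDR ranks, given as a description with no test. The points share 2 libraries, and the rule holds the pooled signal, made from both, within a narrow range.

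**Figure D4:**
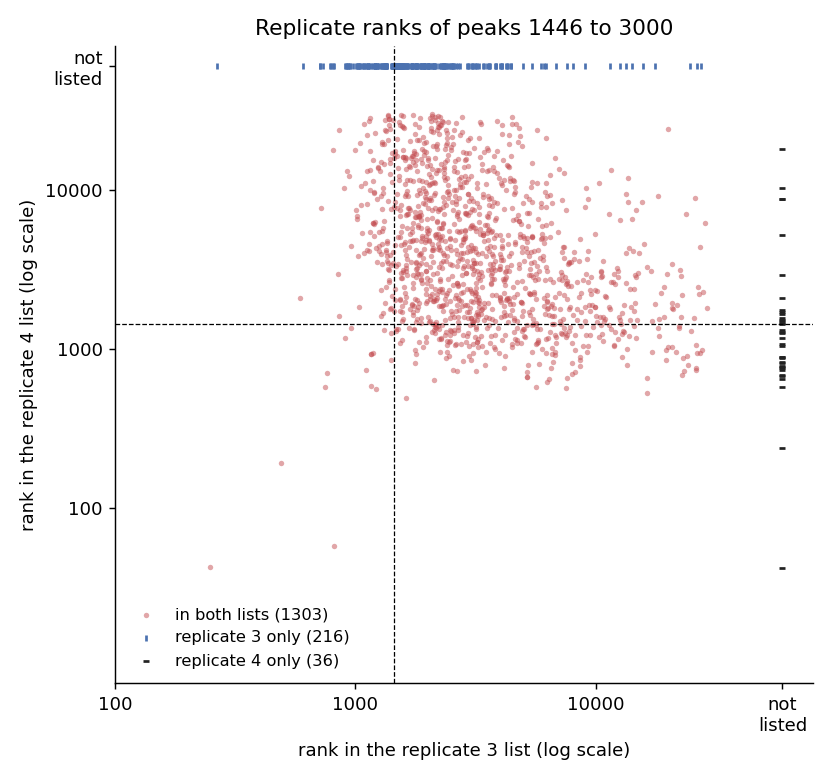
Rank of each of the 1555 peaks in the replicate 3 list (x axis, log scale) and the replicate 4 list (y axis, log scale), with peaks missing from a list on the margin and dashed lines at rank 1445. Most of the 1303 peaks in both lists lay past rank 1445 in at least 1 replicate, and 216 were listed in replicate 3 only.

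Peaks at opposite ends of that spread were named by the ratio of their ranks. E(spl)m7-HLH, which encodes a bHLH repressor induced by Notch, had a peak at −455 bp (3R:26036583) with a signal of 55.8 at rank 854 in replicate 3 and of 13.0 at rank 23818 in replicate 4. Tmhs ranked 1153 and 28271, lncRNA:CR44478 ranked 1085 and 25896, and lncRNA:CR44366 ranked 1134 and 26881. In the other direction, CR40461 ranked 26146 in replicate 3 and 735 in replicate 4, and MICU3, a mitochondrial calcium uptake gene, ranked 26182 and 760. Pgant9, a glycosyltransferase gene, ranked 22822 and 687, and CAP, an adaptor protein gene, ranked 23382 and 731. In each of these 8 peaks 1 replicate ranked ahead of 1445 and the other at 22822 or later in its list of 30000.

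The first 1445 ranks of replicate 3 held a summit within 200 bp of 218 of the peaks (14.0%), those of replicate 4 of 252 (16.2%), and those of either of 444 (28.6%). Those of both held 26 (1.67%), of which 18 lay at start sites and 20 within 1000 bp of a higher-ranked summit. Over all 1555 peaks, 40.4% lay at start sites and 10.2% within 1000 bp of a higher-ranked summit. Peaks among the 26 were named after their values were seen. MYPT-75D, a myosin phosphatase subunit gene, had a peak (3L:18640948, pooled signal 58.6) whose replicate partners ranked 248 and 43, and its summit lay 199 bp from a higher-ranked one. The peak at simj (3L:10683161, signal 62.7) had partners at ranks 490 and 194, with a higher-ranked summit 203 bp away, and the one in Klp98A, a kinesin gene (3R:27547914, signal 54.5), at 818 and 58, with one at 199 bp. Those with no higher-ranked summit within 1000 bp included Orai at ranks 1401 and 1270, Hydr2 at 902 and 1174, CG33307 at 1311 and 1309, and CG32137 at 1166 and 937. Both partners were shared with an IDR rank for 2 of the 1555 peaks.

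Across the band, 159 peaks (10.2%) had a higher-ranked summit within 1000 bp, against 23.3% of ranks over 12000. The number of higher-ranked peaks grows down the list, so these shares are not on equal terms. In 80 of the 159 peaks the higher-ranked summit lay 190 to 250 bp away, in 6 at 251 to 500 bp and in 73 at 501 to 1000 bp. None lay closer than 190 bp. With the IDR ranks as the same reference for both bands, a summit lay within 1000 bp of 117 peaks (7.52%), against 2.02% of ranks over 12000.

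At genes, 790 of 13945 protein-coding genes (5.67%) had one of these summits within 500 bp of a start site, against 941 (6.75%) for the IDR ranks and 1670 (12.0%) for ranks over 12000, a band with far more peaks. Of the 790 genes, 71 (8.99% of them and 7.55% of the IDR-rank genes) also had an IDR rank at a start site, and 719 did not. Among the genes named from the lists below, SerRS, Rpn5, p38a, Rx, Hnf4, CHES-1-like, Sox102F, Tm1, Dp and Trpm also had an IDR rank there. Both bands together reached 1660 genes (11.9%). Over all 18164 genes of the annotation, 877 (4.83%) had such a summit.

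Cytoplasmic ribosomal protein and translation factor genes had some of the higher shares among the gene lists. Cytoplasmic ribosomal protein genes had 14 of 93 (15.1%, exact 95% interval 8.48 to 24.0), against 5.67% of protein-coding genes. In the IDR ranks they had 10, and in ranks over 12000 they had 17 (18.3%, against 12.0% of protein-coding genes). The strongest were RpL37A (signal 63.7, replicate ranks 3111 and 1524), RpLP0 (63.3, ranks 1338 and 4064), RpL30 (61.2, ranks 1309 and 6382) and RpS21 (58.1, ranks 2127 and 9219). Translation factor genes had 7 of 54 (13.0%, 5.37 to 24.9), led by eEF1alpha1 (signal 62.2, ranks 1878 and 1577), eIF3h, eIF5B and eRF3. Of these 4, eIF3h was listed in replicate 3 only (rank 1208). Aminoacyl-tRNA synthetase genes had 3 of 35 (AspRS, SerRS and AsnRS) and mitochondrial ribosomal protein genes 2 of 73 (mRpS7 and mRpS22), with 10 of the latter in the IDR ranks. The peaks of AsnRS and mRpS22 were also listed in replicate 3 only. Nuclear respiratory chain genes had 7 of 86 (8.14%), with COX7AL2, ATPsynE, COX5A and ND-24 the strongest. The interval of cytoplasmic ribosomal protein genes lay above 5.67%, and those of the other lists in this paragraph included it. Lists are described by counts, with no test.

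Among signalling genes, the joint list of JAK-STAT, Hippo and JNK genes had 6 of 35 (17.1%, exact 95% interval 6.56 to 33.6), against 5.67% of protein-coding genes. In the IDR ranks this list had 8.57% (against 6.75%), and in ranks over 12000 it had 14.3% (against 12.0%). The 6 genes included Stat92E, the fly STAT factor gene (signal 54.6, rank 26186 in replicate 3 and 1068 in replicate 4), p38a (60.7), Traf4 (55.8) and Traf6 (50.1, ranks 2787 and 2918). Receptor tyrosine kinase and Ras genes had 4 of 49 (8.16%), among them the ligand gene Krn, edl and the repressor gene cic (signal 52.6). Notch pathway genes had 2 of 24 (E(spl)m7-HLH and the coactivator gene mam, signal 47.0) and Wnt genes 1 of 26 (Wnt6, signal 62.0). Hedgehog genes had 0 of 15 (0 to 21.8%), and BMP and activin genes 0 of 23 (0 to 14.8%). The intervals of all these signalling lists but the first include 5.67%. No interval was adjusted for the 40 lists described.

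Chromatin and transcription factor lists had between 0% and 13.6% of their genes in the band, and each list's interval included the 5.67% of protein-coding genes. Polycomb, trithorax and insulator genes had 4 of 41 (9.76%, 2.72 to 23.1): Utx, a histone demethylase gene (signal 59.6), Trl, the gene of GAGA factor (57.0), M1BP (54.2) and BEAF-32 (49.1). The Trl peak was listed in replicate 3 only (rank 1075). The BTB factor list had 3 of 22 (psq, Trl and trem), where trem is a ZAD zinc finger gene, not a BTB factor, that both lists hold. ZAD zinc finger genes had 3 of 33 (trem, CG8319 and M1BP), and nuclear receptor and hormone genes 3 of 34 (ERR, shd and Hnf4). Other homeobox genes had 2 of 67 (Rx and PHDP), while the Hox cluster had 0 of 12, with 3 in the IDR ranks. Gap, pair-rule and dorsoventral genes had 1 of 34 (cnc), Sox genes 1 of 8 (Sox102F, on chromosome 4, listed in replicate 3 only), forkhead genes 1 of 17 (CHES-1-like) and GATA genes 0 of 7. CHES-1-like ranked 1630 and 490. The summits of Sox102F and CHES-1-like lay 204 bp and 200 bp from a higher-ranked one.

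Lists of cell machinery had shares from 2.08% (proteasome) to 11.5% (heat shock and chaperone genes), with 5.67% inside the interval of each. Heat shock and chaperone genes had 3 of 26: Hsp60A (listed in replicate 3 only), stv, a co-chaperone gene, and Hsp83, the fly HSP90 gene (signal 58.6, ranks 1449 and 1727). Muscle and actin genes had 3 of 55 (Act5C, Tm1 and shot), splicing genes 3 of 49 (snRNP-U1-C, Prp31 and SC35), mitosis genes 2 of 39 (Cdk1 and grp), replication genes 1 of 40 (Dp) and the proteasome 1 of 48 (Rpn5). The peak of Cdk1 was the same as that of mRpS7. Ion channel genes had 2 of 60 (nAChRalpha3 and Trpm), neural genes 1 of 39 (Fas2), germline and piRNA genes 1 of 28 (cuff) and sex determination and dosage compensation genes 1 of 29 (fl(2)d). The peaks of Dp (rank 24774) and cuff (rank 2715) were listed in replicate 3 only. Chemoreceptor genes had 1 of 187 (Or88a, 0.535%, 0.0135 to 2.94) and cuticular Cpr genes 0 of 70 (0 to 5.13%), both with an interval below 5.67%. Both lists had 0 genes in the IDR ranks. In ranks over 12000 they had 4.28% and 1.43%, against 12.0% of protein-coding genes. Cytochrome P450 genes had 1 of 87 (Cyp28d2, 0.0291 to 6.24%) and serpins 0 of 27 (0 to 12.8%), with intervals that include 5.67%.

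Of non-coding genes, long non-coding and antisense RNA genes had 71 of 2447 (2.90%), transfer RNA genes 8 of 295 (2.71%), small nucleolar RNA genes 3 of 257 (1.17%) and microRNA genes 0 of 260, against 4.83% over all genes. Of the 8 transfer RNA genes, tRNA:Ile-AAT-1-4, tRNA:Ile-AAT-1-5 and tRNA:Leu-CAA-2-1 shared a single peak, which was listed in replicate 3 only (rank 904). Replication-dependent histone genes had 0 of 111, a repeated cluster, and how the authors treated reads from repeats is not given in the sources used here.

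Several long genes held more than 1 peak of the band. kirre, which encodes an immunoglobulin-domain adhesion protein of myoblast fusion (X, 394149 bp), had 8, with 2 IDR ranks beside them. The strongest (signal 65.3) ranked 2460 and 901, and 2 of the 8 lay at start sites of other genes inside kirre, Syx4 and CG3588. CG32264 had 6 with 1 IDR rank, and SNF4Agamma, the gamma subunit gene of the AMP-activated kinase (73531 bp), had 6 with 0 IDR ranks. The CG32264 peaks at 3L:3771081 and 3L:3771281 lay 200 bp apart and shared a replicate 4 partner. The one at 3L:3806549 lay just outside the gene. For SNF4Agamma the signals ran from 46.1 to 63.6, and 3 of the 6 lay at its own start sites. Its remaining peaks (ranks 2092, 2580 and 2825) were each listed in 1 replicate only. osp had 5 peaks with 1 IDR rank, and sbb, which encodes a nuclear corepressor, had 5 with 5. These counts grow with gene length.

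In windows of 20 kb, the most crowded held 5 of these peaks. One lay at drongo and kraken (2L:838137-856916, 1 IDR rank), one around Mtp and RPA2 (2L:20917541-20926747, 1 IDR rank), one between protein-coding genes (3L:11349357-11358849, 1 IDR rank) and one at HmgD and HmgZ, genes of high mobility group proteins (2R:21698331-21715734, 4 IDR ranks). The bowl gene, which encodes a zinc finger factor, held 4 within 4986 bp (2L:3773400-3778385) with 0 IDR ranks in that span and 1 elsewhere in the gene or within 500 bp of it. CG15073 itself (2R:18705977-18708226) had no pooled peak of any rank within 500 bp, and the nearest peak of the band lay 7259 bp away at rank 1740.

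In sequence around the summits, the band differed from the weak end of the list in most of the motifs searched. Of 14 motifs searched on both strands of 201 bp windows, 0 differed from the IDR ranks after adjustment. The Su(Hw) core (TGCATACTT or TGCCTACTT), the element of an insulator protein, had an unadjusted p of 0.0190 there (0.900% against 1.94%, adjusted p = 0.0531, Fisher's exact test), and no other motif was under 0.05. Against ranks over 12000, 9 of 14 passed, 7 higher and 2 lower in the band.

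The CTCF core (AGATGGCGC, AGAGGGCGC, AGGTGGCGC or AGGGGGCGC), the central letters bound by the insulator protein CTCF, was in 38 windows (2.44%, exact 95% interval 1.73 to 3.34), against 0.553% in ranks over 12000 (adjusted p = 9.83e-10), 2.77% in the IDR ranks and 0.899% of all 23030 windows. That difference held in 10 of 11 other settings, among them outside start sites (2.37% against 0.519%) and in windows of 30 to 40% G and C (2.05% against 0.392%), both chosen after seeing the data. It did not hold when replicate 3 was left out and the band was redrawn on replicate 4 (0.900% against 0.545%, adjusted exact p = 0.171).

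By Fisher's exact test, among core promoter letters, the TATA box (TATAAAA) was in 16.4% of windows against 11.4% in ranks over 12000 (adjusted p = 8.27e-07), and Ohler motif 7 (CAGCNCTA or CATCNCTA) in 5.40% against 2.73% (adjusted p = 1.36e-06). Without replicate 3 only the TATA box (13.2% against 10.5%) and the M1BP site (0.965% against 0.339%) of all 14 motifs were called against ranks over 12000. The BEAF-32 site (CGATAG), which overlaps the DREF element, was in 7.01% against 4.60% (adjusted exact p = 5.18e-04), the DREF element (TATCGATA) in 1.80% against 0.907% (adjusted p = 0.00805) and the M1BP site (GGTCACAC) in 1.41% against 0.517% (adjusted p = 8.85e-04). DREF, BEAF-32 and M1BP matches turned direction outside start sites, where they were 0.324% against 0.573%, 2.59% against 3.89% and 0.216% against 0.303%, none called. The homeodomain core (TAATTA) was in 17.4% against 14.2% (adjusted exact p = 0.00289). In windows of 30 to 40% G and C, only CTCF, M1BP and Ohler motif 7 were still called. There, the TATA box was in 17.5% against 15.2% (adjusted exact p = 0.344). Outside start sites it was called, with 15.0% against 11.2% (adjusted exact p = 0.0138).

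The Pho site (GCCATTT), bound by a Polycomb recruiter, and the Tramtrack site (CAGGACC), bound by a BTB repressor, were rarer in the band than in ranks over 12000. Pho letters were in 3.79% against 6.04% (adjusted exact p = 9.59e-04) and Tramtrack letters in 4 windows (0.257%) against 1.30% (adjusted p = 4.73e-04). The IDR ranks had 4.08% and 0.138%. The remaining motifs did not pass: the GAGA repeat (GAGAGA) was in 8.94% against 7.75%, the Twist E-box (CATATG) in 7.40% against 6.51%, the GATA site (AGATAAG) in 2.64% against 2.33%, the Zelda site (CAGGTAG) in 1.03% against 1.11% and the Su(Hw) core in 0.900% against 0.725%. A match is a description of letters in the window, and the part of base composition in these differences was tested only by the G and C range above.

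**Figure D5:**
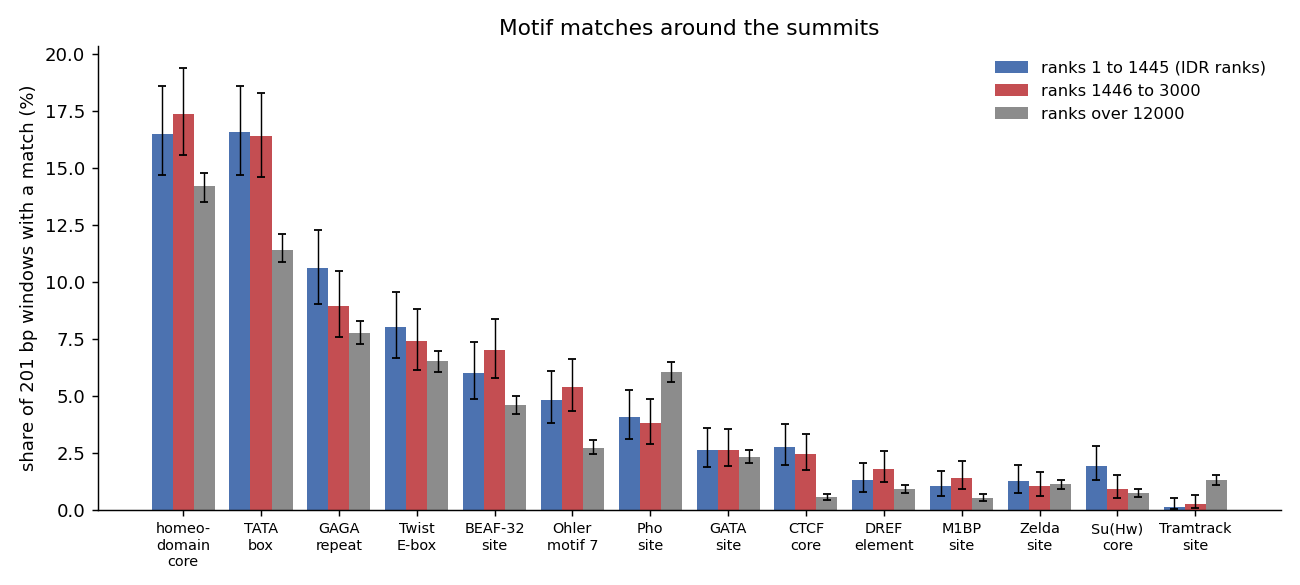
Percent of 201 bp summit windows (y axis) with a match to each of 14 motifs (x axis) in the IDR ranks, ranks 1446 to 3000 and ranks over 12000, with exact 95% intervals. CTCF core letters were in 2.77%, 2.44% and 0.553% of the 3 bands, and Tramtrack letters in 0.138%, 0.257% and 1.30%.

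On the dm3 build, where 1175 peaks passed IDR, the same kind of band (ranks 1176 to 3000) held 1825 peaks. Of these, 1533 (84.0%) had a summit within 200 bp in both dm3 replicate lists, next to 83.8% on dm6. The dm3 lists hold the same libraries, so this is no independent measurement.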

How the data were processed

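Chromatin from transgenic embryos was precipitated with an anti-GFP antibody in 2 biological replicates, per the labels. The authors deposited 8 peak lists, 4 per build (dm6 and dm3): a relaxed list for each replicate, 1 for both pooled and an IDR list. Tools for alignment and peak calling, the IDR threshold and depth were not given in the sources used here. No control was analysed, and how depth limits weak peaks is unknown. Each list holds a deposited signal per peak, with no stated scale, and a deposited −log10 q-value; the p-value column holds a placeholder.

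Pooled dm6 peaks were ranked by signal, and ranks 1446 to 3000 were taken. The peaks, motifs and gene lists were chosen with earlier results of these data known. Start sites, genes and UTRs came from Ensembl release 115 (BDGP6.54), without 5809 transposable element insertions, and sequence from RefSeq Release 6. Promoter peaks had their summit within 500 bp of a start site. Summits within 200 bp counted as the same site, the nearest being the partner. A summit in several features was placed in the order 5' UTR, coding, 3' UTR, intron or other transcribed, intergenic. Shares were compared with two-sided Fisher's exact tests, adjusted by Benjamini-Hochberg within start sites (2 tests), classes (10), arms (12), upstream share (2) and motifs (28), with a threshold of 0.05. Intervals are exact Clopper-Pearson 95% intervals. Leaving out a replicate redrew the bands at the same ranks on the other replicate's list. The first 1445 ranks of that list then took the place of the IDR ranks. Named were the peaks at the limits, the 25 strongest in both replicate lists within 500 bp of a protein-coding start, the 8 strongest over 1000 bp from a start, the 5 genes with most peaks, up to 4 genes per list (40 lists), the 4 largest and 4 smallest ratios of replicate ranks and CG15073. The tests were tested on simulated shares. Python 3.11.15, numpy 2.4.6, pandas 2.3.3, scipy 1.17.1 and matplotlib 3.10.9 were used.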

Additional observations from a re-analysis of the deposited data

How the results depend on the processing

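The start-site share stayed below the IDR ranks and above ranks over 12000, past the threshold, under each alternative run. Of the 16 called classes, arms and motifs, 162 alternative values gave 102 with the same call, 57 in the same direction but not called, and 3 reversed. The reversed were the differences from ranks over 12000 outside start sites of DREF (−0.250 points), BEAF-32 (−1.30) and M1BP (−0.0871). Settings by start site or by G and C were chosen after seeing the data.

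Leaving out a replicate gave 0 to 2 classes against the IDR ranks, 0 to 1 arms against the IDR ranks and 0 to 1 against ranks over 12000, 0 to 2 motifs against the IDR ranks and 2 to 10 against ranks over 12000. In these runs, the IDR ranks were replaced by the first 1445 ranks of the other replicate's list. The low motif count came without replicate 3, and the calls of arms against the strongest band were all lost without replicate 4. Against the IDR ranks, 0 arms passed in the upper or the lower of 2 equal parts of the ranks, on dm3 and among promoter peaks, 1 passed without peaks near a higher-ranked peak and among peaks in both replicate lists, and 2 outside start sites. Against ranks over 12000, 0 passed in either of these parts, without peaks near a higher-ranked peak, among promoter peaks and outside them. Against the IDR ranks, 1 motif passed without peaks near a higher-ranked peak and among promoter peaks, and 2 with 200 bp to each side. Against ranks over 12000, 5 passed in the lower part and among peaks in both lists, and 3 outside start sites or in windows of 30 to 40% G and C. The upstream share differed from the IDR ranks by −2.85 points in the upper part and −3.85 points without peaks near a higher-ranked peak, neither called. The cause was not tested.

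The share in both replicate lists was 40.1%, 68.3% and 88.0% with summits within 50, 100 and 500 bp, 14.8% and 66.4% with the strongest 3000 and 12000 of each list, and 87.4% and 80.2% in the upper and lower part of the ranks. Whether or not the other replicate listed them, 86.1% of the peaks had a summit in the replicate 4 list and 97.7% in the replicate 3 list. No paired analysis was possible because the series holds 1 group.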

Other observations

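The promoter share of ranks 1446 to 3000 was set beside the replicate lists that held each peak. Of the 216 listed in replicate 3 only, 115 (53.2%, exact 95% interval 46.4 to 60.0) had a start site within 500 bp, against 502 of the 1303 in both lists (38.5%, 35.9 to 41.2) and 11 of the 36 in replicate 4 only (30.6%, 16.3 to 48.1). Median G and C of their windows was 36.3%, 35.8% and 35.3%, and the median pooled signal 50.1, 52.5 and 47.9. The CTCF core was in 4 (1.85%), 32 (2.46%) and 2 (5.56%) of them. In the IDR ranks, 34 of the 54 peaks in replicate 3 only (63.0%, 48.7 to 75.7), 5 of the 7 in replicate 4 only (71.4%, 29.0 to 96.3) and 718 of the 1384 in both (51.9%, 49.2 to 54.5) were at promoters. These groups were set by the replicate lists after their values were seen, so the shares are given with no test.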
